A study of Mus musculus with 8 samples.

Results

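Nestin was examined together with 5 other intermediate filament genes, a set of 6 of the 15880 genes in the deposited table. The members were chosen by gene symbol. They and the gene lists used below were chosen with earlier results of these data known, so their counts are descriptive. *Nes*, *Vim*, *Des* and *Gfap* encode filament proteins of the cytoplasm, and *Lmna* and *Lmnb1* encode filament proteins of the nucleus. Each symbol had a single Ensembl identifier, and all 6 members had a value over 2 in at least 2 libraries, as did 14333 genes of the table.

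The cells came from *Nes-Gfp* heterozygous pups on a C57BL/6 background at postnatal day 1, by crushing long bones and sterna and digesting them with collagenase. Cells bearing CD45, CD31 or Ter119, which mark blood cells, endothelium and erythroid cells, were set aside, and the rest were sorted by GFP and by surface Pdgfrα into 4 populations. They are called GFP-only (GFP+ Pdgfrα-), co-positive (GFP+ Pdgfrα+), Pdgfrα-only (GFP- Pdgfrα+) and marker-negative (GFP- Pdgfrα-) cells. Each population had 2 libraries, and each library held RNA from 15000 to 80000 cells pooled from 3 pups. The groups therefore shared genotype, age and tissue, and differed in the sort gates. GFP in these mice is made from a transgene that carries regulatory elements of nestin, among them an enhancer active in neural stem cells, so the gate selected cells by GFP protein and not by *Nes* RNA. The pups were pooled and the cDNA was amplified, so no value belongs to a single animal and reads are not independent molecules.

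Intermediate filaments are rope-like polymers of rod-shaped proteins that give cells and nuclei their resistance to stretch, and cell types differ in which of them they make. Nestin does not form filaments alone but joins those of vimentin or desmin, and it is known from neural stem cells, muscle precursors and perivascular cells of the marrow. The lamins line the inside of the nuclear envelope, where B-type lamins occur in nearly all cells and the amount of A-type lamins depends on cell type and tissue stiffness.

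A normalized value in the table is the number of reads of a gene plus 0.5, per 1000000 of an effective library size. The libraries held 3221217 to 5302762 reads on genes, and 3 reads, taken as the floor, had a value of 0.825 to 1.04. The floor covers counting error only. Counting noise alone would give a chi-square per degree of freedom near 1 between the 2 libraries of a population, and the measured values were 3.81 to 8.16. Populations were compared with limma on log2(value + 1) over all genes, with a gene called when its adjusted p was at most 0.05. These p-values rest on a spread between libraries that limma pooled over the populations and moderated by a trend over all genes. They therefore lean on that model, and an exact two-sided permutation test of 2 libraries against 2 cannot give a p below 0.333. Same-numbered libraries shared a pool of pups, so the same 2 pools underlie all populations. The 6 pairwise comparisons share libraries, so their values are given side by side. *Pdgfra*, singled out after its values were seen, averaged 744 ± 14.9 and 816 ± 31.8 (SD, n = 2 libraries each) in the GFP+ and GFP- populations sorted as Pdgfrα+. In the populations sorted as Pdgfrα- it averaged 14.3 ± 5.42 and 3.83 ± 0.749 (SD, n = 2 each), so its RNA followed the surface gate.

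*Nes* (ENSMUSG00000004891) encodes nestin and lies on the plus strand of chromosome 3, from 87775000 to 87784373 in NCBIM37, with 4 exons that overlap no other annotated gene. In GFP-only cells its normalized value was 149 and 176 in the 2 libraries, from 612 and 684 reads. In co-positive cells it was 57.6 and 72.0. These 4 GFP+ libraries were the highest of the 8. In Pdgfrα-only cells the value was 27.4 and 47.1, and in marker-negative cells it was 3.59 and 9.08, from 12 and 38 reads. No population overlapped with another, and *Nes* reads were found on both sides of the GFP gate.

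The GFP gate divided *Nes* RNA far more sharply among Pdgfrα- cells than among Pdgfrα+ cells. Among Pdgfrα- cells the mean was 25.6 times higher on the GFP+ side, a log2 difference of 4.58 with a 95% interval of 3.84 to 5.32 (adjusted p = 3.13e-07, limma, both GFP+ libraries above both GFP- libraries). Among Pdgfrα+ cells the mean was 1.74 times higher on the GFP+ side, a log2 difference of 0.82 with an unadjusted interval of 0.08 to 1.57. That difference did not pass the test (adjusted p = 0.213, limma), although both GFP+ libraries lay above both GFP- libraries. It was 0.44 without replicate 1 of the Pdgfrα-only cells and 1.21 without replicate 2. The adjusted p ranged from 0.0502 to 0.69 over all alternatives, with the lowest in a fit without the marker-negative libraries that was chosen after seeing the data. Taking the GFP difference among Pdgfrα- cells from that among Pdgfrα+ cells gave -3.76, with an interval of -4.80 to -2.71 (adjusted p = 5.73e-05, limma). The GFP- side among Pdgfrα- cells was the marker-negative libraries. Their erythroid markers summed to 13873 and 21935, against 39.9 to 172 in the other libraries. The mean of *Vim* was also 19.2 times higher on the GFP+ side among Pdgfrα- cells. The part of the erythroid content in these differences was not tested. In bulk libraries such as these, fewer cells that make a transcript and less of it in each cell cannot be told apart.

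*Nes* RNA differed across the Pdgfrα gate in opposite directions on the 2 sides of the GFP gate. Among GFP- cells the mean was 5.87 times higher in Pdgfrα+ than in Pdgfrα- cells (log2 difference 2.44, adjusted p = 5.3e-05, limma). Among GFP+ cells the Pdgfrα+ mean was 0.399 times the Pdgfrα- mean (log2 difference -1.32, interval -2.06 to -0.57, adjusted p = 0.0144, limma). This last call was lost when 1 of 3 libraries was left out. The log2 difference was then -1.44 (adjusted p = 0.0773) without replicate 1 of the GFP-only cells, -1.19 (adjusted p = 0.126) without their replicate 2, and -1.16 (adjusted p = 0.0984) without replicate 1 of the co-positive cells, against a range of 0.000393 to 0.126 over all alternatives. *Nes* was also higher in GFP-only than in Pdgfrα-only cells, by a log2 difference of 2.14 (adjusted p = 0.00056, limma), and higher in co-positive than in marker-negative cells, by 3.27 (adjusted p = 4.6e-06, limma). The levels thus ran from GFP-only through co-positive and Pdgfrα-only to marker-negative cells, and the neighbours not shown to differ were the Pdgfrα+ populations.

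Adding the means of the 4 populations with equal weight, 83.9% of the *Nes* sum lay in the GFP+ populations. The same share was 87.7% for *Des*, 56.3% for *Vim*, 47.5% for *Lmna*, 39.1% for *Lmnb1* and 10.2% for *Gfap*. These shares weigh the populations equally and do not test a difference between genes. Among the 11004 genes with a mean of at least 5, *Nes* ranked 230th from the top by its log2 difference across the GFP gate in Pdgfrα- cells and 746th in Pdgfrα+ cells, with 2.08% and 6.77% of these genes ranked above it.

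**Figure D1:**
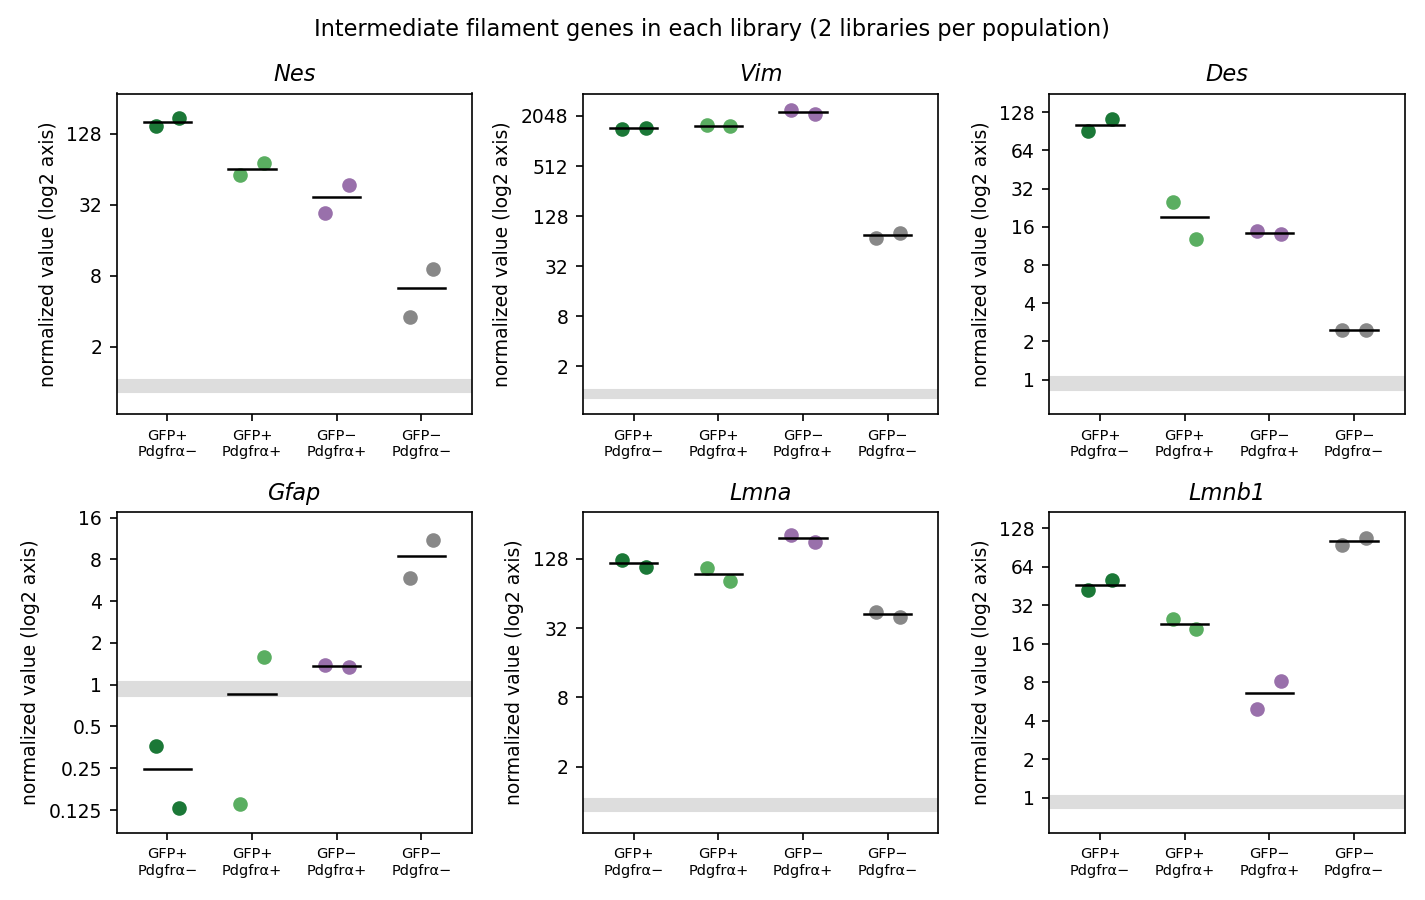
Normalized value (log2 axis) of the 6 genes in each of the 8 libraries, as dots, with a bar at the mean of the 2 libraries of a population and a grey band at the value of 3 reads. The *Nes* libraries run from 149 and 176 in GFP-only cells down to 3.59 and 9.08 in marker-negative cells, and *Gfap* lies near the band in all but the last population.

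The genes whose pattern over the 8 libraries was most like that of *Nes* were named by Pearson correlation of log2(value + 1). The 10 highest were *Dtx4*, *Kank4*, *Odz4*, *Notch1*, *Gfra1*, *Ccng2*, *Adam23*, *Itgb8*, *Pla2r1* and *Pak3*, with r from 0.9950 down to 0.9827. These r describe 8 libraries that fall into 4 populations, so they mostly compare 4 levels, and no p is given. *Dtx4* (ENSMUSG00000039982), which encodes an E3 ubiquitin ligase, had mean values of 271, 94.6, 46.7 and 5.13 in the order of populations given for *Nes*. The receptor gene *Notch1* (ENSMUSG00000026923) had means of 273, 87.3, 59.3 and 10.9 in the same order. Across the GFP gate among Pdgfrα+ cells, *Dtx4* was called (log2 difference 1.02, adjusted p = 0.0424, limma) and *Notch1* was not (0.55, adjusted p = 0.382, limma). Both were chosen for their likeness to *Nes* over the same libraries, and whether their differences were unlike that of *Nes* was not tested. *Gfra1* encodes a receptor for the growth factor GDNF and *Itgb8* an integrin subunit, and their means in GFP-only cells were 50.1 ± 11.6 and 56.5 ± 2.63 (SD, n = 2). Between members of the set, *Nes* was most alike to *Des* (r = 0.94, n = 8 libraries), then to *Vim* (0.82) and *Lmna* (0.61), while r was -0.32 with *Lmnb1* and -0.88 with *Gfap*.

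*Vim* (ENSMUSG00000026728; chromosome 2, 13495554 to 13504453, plus strand, 9 exons) encodes vimentin, the usual filament protein of mesenchymal cells and a partner of nestin. Its value was 1438 and 1460.3 in the GFP-only libraries and 1597 and 1538 in the co-positive libraries. It was 2382 and 2157 in Pdgfrα-only cells, and 70.8 and 79.8 in marker-negative cells. *Vim* was thus abundant in every population with GFP or Pdgfrα, and the only libraries with little of it were those of the marker-negative cells. The mean was 30.1 times higher in Pdgfrα-only than in marker-negative cells (log2 difference 4.90, adjusted p = 3.52e-11, limma) and 19.2 times higher in GFP-only than in marker-negative cells (4.25, adjusted p = 2.64e-10, limma).

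Within the Pdgfrα+ cells *Vim* went against the GFP gate. It was lower in GFP+ than in GFP- cells by a log2 difference of -0.53 (interval -0.78 to -0.28, adjusted p = 0.0183, limma). The call was lost without any 1 of the 4 libraries compared, at -0.46 (adjusted p = 0.18) without GFP- replicate 1, -0.60 (adjusted p = 0.086) without GFP- replicate 2, -0.56 (adjusted p = 0.0784) without GFP+ replicate 1 and -0.51 (adjusted p = 0.0967) without GFP+ replicate 2, where the range over all alternatives was 0.000491 to 0.18. *Vim* was also lower in GFP-only than in Pdgfrα-only cells (-0.64, adjusted p = 0.00121, limma). The GFP+ populations were not shown to differ (0.11, interval -0.14 to 0.36, adjusted p = 0.527, limma). The GFP difference was lower among Pdgfrα+ than among Pdgfrα- cells by a log2 value of -4.78 (adjusted p = 6.8e-09, limma). The order of levels for *Vim* therefore began with Pdgfrα-only cells, followed by the pair of GFP+ populations and, far lower, the marker-negative cells.

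Per length of transcript, *Vim* was the largest of the 4 cytoplasmic members in every library. Values divided by transcript length in kb were summed over *Nes*, *Vim*, *Des* and *Gfap* within each library. *Vim* took 92.3% and 91.0% of that sum in GFP-only cells, 97.6% and 97.7% in co-positive cells, 99.1% and 98.7% in Pdgfrα-only cells, and 89.9% and 85.0% in marker-negative cells. The sum itself was 35.9 and 42.8 per kb in the marker-negative libraries and 710.3 to 1096 per kb in the other 6. *Nes* per kb amounted to 3.70% and 4.32% of *Vim* per kb in GFP-only cells and to 1.29% and 1.68% in co-positive cells. It amounted to 0.411% and 0.781% in Pdgfrα-only cells and to 1.82% and 4.07% in marker-negative cells. Relative to vimentin, *Nes* therefore fell in 3 separate ranges in the populations with GFP or Pdgfrα, and the marker-negative libraries spanned a range that touched the highest of them. Among the genes most like *Vim* were *Rnf13*, *Lima1*, *Mtap4* and *Krba1* (r from 0.9995 to 0.9990, n = 8 libraries), of which *Lima1* encodes an actin-binding protein and *Mtap4* a microtubule-associated protein.

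*Des* (ENSMUSG00000026208; chromosome 1, 75356904 to 75365154, plus strand, 9 exons) encodes desmin, the filament protein of muscle that is also made by pericytes. Its exons overlap those of *Gm15179* on the opposite strand, which averaged 0.576 over the 8 libraries. *Des* had values of 90.9 and 113 in GFP-only cells, 25.3 and 12.8 in co-positive cells, 14.7 and 14.1 in Pdgfrα-only cells, and 2.44 and 2.48 in marker-negative cells, the last from 8 and 10 reads. The GFP-only libraries stood above all others, and the Pdgfrα+ populations overlapped. *Des* was 41.4 times higher in GFP+ than in GFP- cells among Pdgfrα- cells (log2 difference 4.88, interval 4.21 to 5.56, adjusted p = 8.55e-08, limma). Among the 11004 genes of the ranking, 1.31% had a larger log2 difference in this comparison.

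Among Pdgfrα+ cells the GFP gate gave no called difference in *Des* (log2 difference 0.30, interval -0.37 to 0.98, adjusted p = 0.672, limma), and the value was -0.16 without replicate 1 of the co-positive cells. The GFP differences among Pdgfrα+ and among Pdgfrα- cells were themselves unequal, by a log2 value of -4.58 (adjusted p = 5.66e-06, limma). *Des* was lower in co-positive than in GFP-only cells (-2.42, adjusted p = 0.00015, limma), and higher in Pdgfrα-only than in marker-negative cells (2.16, adjusted p = 6.94e-05, limma). Per kb, *Des* exceeded *Nes* in both GFP-only libraries and *Nes* exceeded *Des* in both co-positive libraries, while the GFP- populations each held a library of either kind. The ratio of *Nes* to *Des* per kb was 0.808 and 0.773 in GFP-only cells, 1.13 and 2.78 in co-positive cells, 0.917 and 1.65 in Pdgfrα-only cells, and 0.727 and 1.81 in marker-negative cells. The genes most like *Des* were *Mfsd6*, *Peg12*, *Kcna2*, *Cyp2j9* and *Csrp1* (r from 0.9949 to 0.9899, n = 8 libraries). *Csrp1*, which encodes a LIM domain protein of the cytoskeleton, had means of 168 ± 23.3 in GFP-only and 54.7 ± 1.56 in marker-negative cells (SD, n = 2).

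*Gfap* (ENSMUSG00000020932; chromosome 11, 102748650 to 102762226, minus strand, 9 exons) encodes glial fibrillary acidic protein, the filament protein of astrocytes and of non-myelinating Schwann cells. It was close to the floor in all populations except the marker-negative cells. Its values were 0.364 and 0.129 in GFP-only cells, from 1 and 0 reads, and 0.138 and 1.58 in co-positive cells, from 0 and 5 reads. They were 1.39 and 1.34 in Pdgfrα-only cells, from 5 and 4 reads, and 5.89 and 11.0 in marker-negative cells, from 20 and 46 reads. The marker-negative libraries were the highest, and the other populations overlapped or lay within a few reads of each other. An intronic stretch of *Gfap* is shared with *Gm17536* on the opposite strand, which averaged 1.75 over the 8 libraries.

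*Gfap* therefore ran opposite to *Nes* and *Des*. With 66 reads in marker-negative cells against 1 in GFP-only cells, the ratio of reads per effective library size was 68.4, with an exact (Clopper–Pearson) counting interval of 11.9 to 2743. That interval treats reads as independent and leaves out the spread between libraries, which was larger than counting noise, and GFP-only cells were at the floor. The log2 difference of GFP+ minus GFP- cells, which the added 1 compresses at such levels, was -2.87 among Pdgfrα- cells (adjusted p = 0.000228, limma). It was -4.64 with a pseudocount of 0.1, -5.31 with voom and -5.80 with edgeR, and was called in each. *Gfap* was also lower in Pdgfrα-only (-1.94, adjusted p = 0.00323) and in co-positive cells (-2.41, adjusted p = 0.000767) than in marker-negative cells (limma). No difference was called between the other 3 populations. Among Pdgfrα+ cells the log2 difference of GFP+ minus GFP- cells was -0.46 (adjusted p = 0.667, limma), and leaving out a library turned it to 0.13, without replicate 1 of the GFP+ cells. Between the GFP+ populations it was 0.47 (adjusted p = 0.521, limma), and -0.12 without replicate 2 of the co-positive cells. GFP-only minus Pdgfrα-only cells gave -0.93 (adjusted p = 0.168, limma). The interaction of the gates was 2.41 (adjusted p = 0.0107, limma). Its call was lost at larger values, 3.75 with voom (adjusted p = 0.0862) and 3.44 with a pseudocount of 0.1 (adjusted p = 0.058, limma). With edgeR it was 5.04 and was called (adjusted p = 0.0369). The genes most like *Gfap* were *Bud13*, *Phf12*, *2010109K11Rik*, *Rfesd* and *Pi4ka* (r from 0.9852 to 0.9732, n = 8 libraries), a likeness that rests largely on the marker-negative libraries.

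*Lmna* (ENSMUSG00000028063; chromosome 3, 88285070 to 88313878, minus strand, 12 exons) encodes lamins A and C, the A-type lamins. It lies on the same chromosome as *Nes*, with 500696 bases between the genes. Its values were 126 and 110.0 in GFP-only cells, 108 and 82.6 in co-positive cells, 205 and 181 in Pdgfrα-only cells, and 44.7 and 40.2 in marker-negative cells. The Pdgfrα-only libraries were the highest and the marker-negative libraries the lowest. The GFP+ populations lay between them, with both GFP-only libraries above both co-positive libraries, and were not shown to differ (log2 difference -0.31, interval -0.67 to 0.05, adjusted p = 0.202, limma).

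*Lmna* changed across the GFP gate in opposite directions on the sides of the Pdgfrα gate. Among Pdgfrα- cells it was 2.78 times higher in GFP+ cells (log2 difference 1.45, adjusted p = 1.28e-05, limma). In Pdgfrα+ cells its mean was lower with GFP, at 0.493 times the GFP- mean (-1.02, interval -1.38 to -0.66, adjusted p = 0.0039, limma). This call was lost without replicate 1 of the Pdgfrα-only cells, where the value was -0.93 (adjusted p = 0.0659, in a range of 0.000816 to 0.0659 over all alternatives). The difference between these GFP differences was -2.47 (adjusted p = 5.17e-06, limma). *Lmna* was 4.55 times higher in Pdgfrα-only than in marker-negative cells (log2 difference 2.16, adjusted p = 2.79e-07, limma) and lower in GFP-only than in Pdgfrα-only cells (-0.71, adjusted p = 0.00689, limma). The latter value was -0.62 (adjusted p = 0.0752) without replicate 1 of the Pdgfrα-only cells and -0.61 (adjusted p = 0.0712) without replicate 2 of the GFP-only cells, where the range was 0.00156 to 0.0752. Its pattern resembled that of *Vim* (r = 0.91, n = 8 libraries). The genes most like it in the table were *Vat1l*, *Itga2*, *BC024479*, *Foxp1* and *Wdr35* (r from 0.9859 to 0.9802), where *Itga2* encodes a collagen-binding integrin subunit and *Foxp1* a transcription factor.

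*Lmnb1* (ENSMUSG00000024590; chromosome 18, 56867467 to 56913078, plus strand, 11 exons) encodes lamin B1. Its order of levels was nearly the reverse of that of *Lmna*. The value was 94.6 and 107 in marker-negative cells, 41.9 and 50.3 in GFP-only cells, 25.0 and 20.8 in co-positive cells, and 4.92 and 8.17 in Pdgfrα-only cells. No population overlapped with another, and each neighbouring pair in this order was called. Among Pdgfrα+ cells *Lmnb1* was the member that followed the GFP gate, 3.50 times higher in GFP+ cells (log2 difference 1.69, interval 1.16 to 2.23, adjusted p = 0.00196, limma), with 1.73% of the 11004 ranked genes above it. In Pdgfrα- cells its mean was lower with GFP, at 0.457 times the GFP- mean (-1.12, adjusted p = 0.00203, limma). The difference between these GFP differences was 2.81 (adjusted p = 4.18e-05, limma).

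Across the Pdgfrα gate, *Lmnb1* was lower in the Pdgfrα+ cells on both sides of the GFP gate. Among GFP- cells the log2 difference was -3.79 (adjusted p = 6.12e-08, limma), and among GFP+ cells it was -0.98 (adjusted p = 0.0121, limma). The smaller of these calls was lost without replicate 2 of the GFP-only cells, at -0.85 (adjusted p = 0.109), and without replicate 2 of the co-positive cells, at -0.85 (adjusted p = 0.0817), where the range was 0.00585 to 0.109. *Lmnb1* was 7.05 times higher in GFP-only than in Pdgfrα-only cells (log2 difference 2.67, adjusted p = 8.05e-06, limma). The genes most like it were *E2f7*, *Trpv2*, *Psat1*, *H2-Q10* and *Itpa* (r from 0.9891 to 0.9802, n = 8 libraries). *E2f7* encodes a transcription factor of the cell cycle and *Psat1* an enzyme of serine synthesis, with means of 144 ± 7.47 for *Psat1* in marker-negative and 18.0 ± 2.47 in Pdgfrα-only cells (SD, n = 2).

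The ratio of the lamins lay in a separate range in each of the 4 populations, with 2 libraries each. It was not tested, and how many other gene pairs do the same was not examined. Per kb of transcript, the ratio of *Lmna* to *Lmnb1* was 37.5 and 20.0 in the Pdgfrα-only libraries and 3.89 and 3.57 in the co-positive libraries. It was 2.70 and 1.97 in GFP-only cells and 0.425 and 0.339 in marker-negative cells. *Lmna* thus exceeded *Lmnb1* per kb in 6 libraries and was the smaller only in the marker-negative libraries, and the ranges of the populations did not overlap. Over the 8 libraries the log2 values of *Lmna* and *Lmnb1* had r = -0.88, given as a description of libraries that fall into 4 populations.

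**Figure D2:**
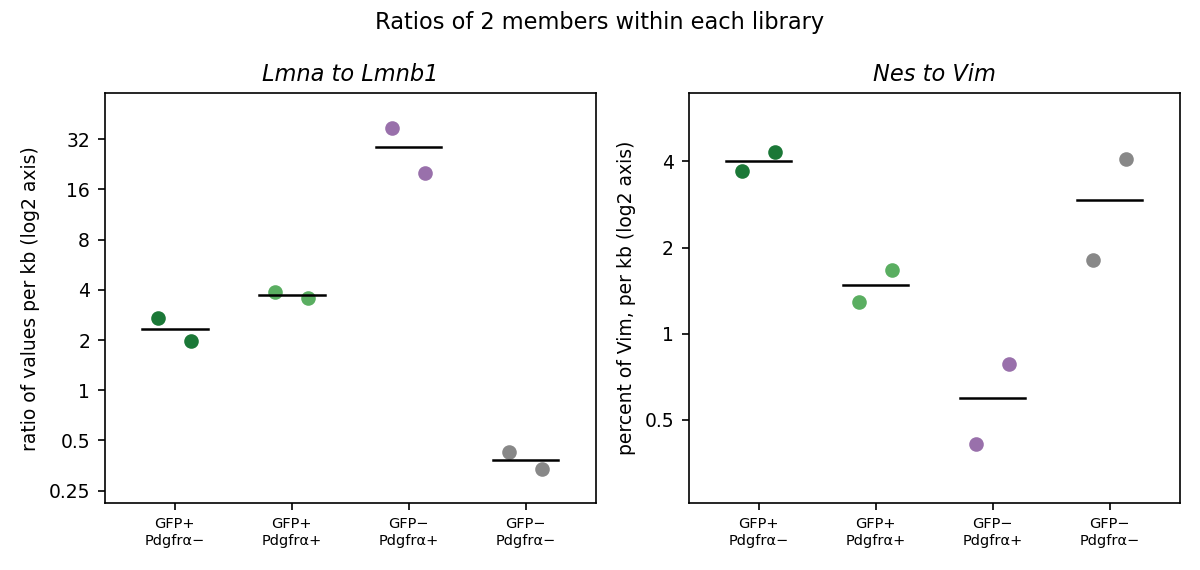
Left, ratio of *Lmna* to *Lmnb1* per kb of transcript, and right, *Nes* as a percentage of *Vim* per kb, both on log2 axes, with a dot per library and a bar at the mean of the 2 libraries. The lamin ratio falls from 37.5 and 20.0 in Pdgfrα-only cells to 0.425 and 0.339 in marker-negative cells.

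Counted over the members, the populations with GFP or Pdgfrα differed from the marker-negative cells in all 6 genes, against a background in which more genes were called than not. Between GFP-only and marker-negative cells, 6 members were called where 53.7% of the 15880 genes were, with 4 higher (*Nes*, *Vim*, *Des*, *Lmna*; background 30.1%) and 2 lower (*Gfap*, *Lmnb1*; background 23.6%). The same 4 and 2 were called between Pdgfrα-only and marker-negative cells (6 members, background 59.7%, with 32.9% higher and 26.8% lower) and between co-positive and marker-negative cells (6 members, background 59.3%, with 32.9% higher and 26.4% lower). The median log2 difference of the members in these comparisons was 2.85, 2.16 and 1.80, and that of all genes 0.15, 0.17 and 0.20. The members are not replicates of a condition, and these comparisons share the marker-negative libraries. Those libraries also carried erythroid markers, which summed to 13873 and 21935 in them and to 39.9 to 172 in the others. They had the highest sums of cell cycle genes too, at 9772 and 10915. The part of either in these differences was not tested.

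Between the populations that carry GFP, Pdgfrα or both, fewer members were called. Across the GFP gate in Pdgfrα+ cells, 3 members were called where 5.35% of all genes were (849 genes), with *Lmnb1* higher (background 3.22%) and *Vim* and *Lmna* lower (background 2.13%). Without replicate 1 of the Pdgfrα-only cells 1 member was called, and the number of genes called in this comparison was 306 without that library, 246 without replicate 2 of the same population, 350.0 without replicate 1 and 517 without replicate 2 of the co-positive cells. Between the GFP+ populations, 3 members were called, all lower in Pdgfrα+ cells (*Nes*, *Des*, *Lmnb1*), where 24.2% of all genes were called, 13.1% higher and 11.1% lower. Without replicate 2 of the GFP-only cells 1 member was called, and the number of genes called went from 3848 to 2411, or to 2158 without replicate 1 of those cells.

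Between GFP-only and Pdgfrα-only cells, 5 members were called (all but *Gfap*) where 27.9% of all genes were, with *Nes*, *Des* and *Lmnb1* higher (background 13.5%) and *Vim* and *Lmna* lower (background 14.3%). The 4427 genes called in all became 2874 without replicate 2 of the Pdgfrα-only cells and 2757 without replicate 1 of the GFP-only cells. The median log2 difference of the members was -0.08 across the GFP gate in Pdgfrα+ cells, -0.65 between the GFP+ populations and 0.75 between the single-positive populations, or 0.90 with *Gfap* at the floor value. The medians of all genes were 0.00, -0.02 and 0.03. The test of whether the GFP difference depended on Pdgfrα called 6 members, 2 higher and 4 lower, where 44.3% of all genes were called, 19.1% higher and 25.2% lower. The median of the members was -3.11 there, and that of all genes -0.16.

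**Figure D3:**
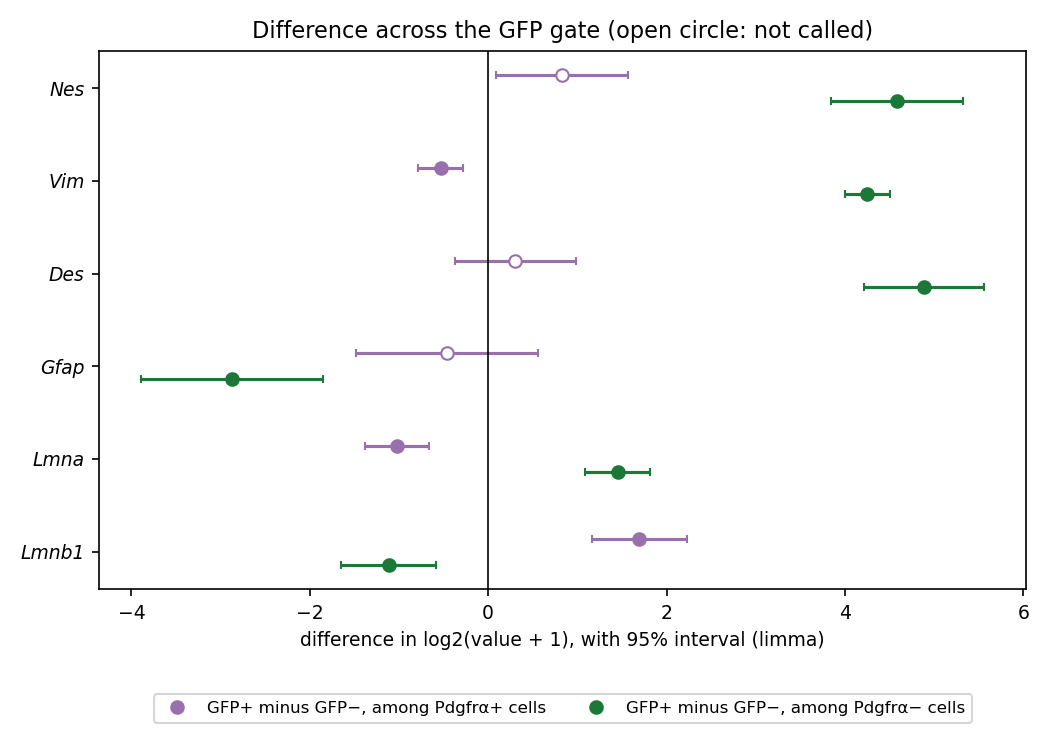
Difference across the GFP gate in log2(value + 1) for each member, with its unadjusted 95% interval from limma, among Pdgfrα+ and among Pdgfrα- cells, where open circles were not called. *Nes* stands at 0.82 among Pdgfrα+ and at 4.58 among Pdgfrα- cells, and *Lmna* and *Lmnb1* lie on opposite sides of 0 in the 2 comparisons.

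Of the other intermediate filament genes, 10 were in the table, and 4 of them averaged at least 5 over the 8 libraries. *Sync* (ENSMUSG00000001333), which encodes syncoilin, a muscle filament protein, had values of 40.4 and 50.0 in GFP-only cells, 5.94 and 5.89 in co-positive cells, 9.20 and 8.46 in Pdgfrα-only cells, and 0.431 and 1.30 in marker-negative cells. It was highest where *Nes* and *Des* were highest. *Synm* (ENSMUSG00000030554) encodes synemin, which joins filaments of desmin or vimentin, and its order differed, with means of 32.2 ± 10.5 in Pdgfrα-only, 24.8 ± 7.66 in co-positive, 11.9 ± 1.90 in GFP-only and 1.96 ± 0.273 in marker-negative cells (SD, n = 2 each). *Lmnb2* (ENSMUSG00000062075), the other B-type lamin gene, differed from *Lmnb1* in being highest in GFP-only cells, at 41.2 and 48.8, against 17.1 and 14.7 in marker-negative cells (log2 difference 1.44, adjusted p = 0.00289, limma). It was also higher in GFP+ than in GFP- cells among Pdgfrα+ cells (1.43, adjusted p = 0.0271, limma). The keratin gene *Krt80* had means of 16.4 ± 1.73 in GFP-only and 2.40 ± 0.466 in co-positive cells (SD, n = 2). Across the GFP gate, 5 of the 10 were higher and 1 lower among Pdgfrα- cells (median log2 difference 0.71, or 0.45 with genes at the floor set to it), where 30.1% of all genes were higher and 23.6% lower. Among Pdgfrα+ cells 1 was higher and 1 lower (-0.43, or -0.19), where 3.22% of all genes were higher and 2.13% lower. The neuronal genes *Nefm*, *Prph* and *Nefh* were named after their values were seen. *Nefm* and *Prph* were at the floor in 3 populations, all but the Pdgfrα-only cells. *Nefh* was instead at the floor in all but the marker-negative cells.

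Proteins that link filaments to each other and to the cell cortex, or act as their chaperones, were represented by 9 of 10 listed genes. Among Pdgfrα- cells 7 of them were higher in GFP+ cells (median log2 difference 2.60, all genes 0.15), as were 30.1% of all genes, and among Pdgfrα+ cells 2 were lower (-0.39, all genes 0.00), as were 2.13% of all genes. The cross-linkers *Dst* and *Plec*, which encode dystonin and plectin, resembled *Vim*. *Dst* averaged 658 ± 19.8 in GFP-only, 681 ± 76.6 in co-positive, 914 ± 28.7 in Pdgfrα-only and 45.8 ± 7.73 in marker-negative cells (SD, n = 2 each). *Plec* was lower in GFP+ than in GFP- cells among Pdgfrα+ cells (-0.87, adjusted p = 0.0146, limma), as was periplakin, encoded by *Ppl* (-2.23, adjusted p = 0.0315, limma). The small heat shock genes *Cryab* and *Hspb1* were highest in GFP-only cells, as *Des* was. *Cryab*, the chaperone of desmin, had values of 150.4 and 146 in GFP-only cells, 30.8 and 24.6 in co-positive cells, 15.0 and 16.2 in Pdgfrα-only cells, and 2.73 and 4.60 in marker-negative cells. *Hspb1* averaged 88.4 ± 16.0 in GFP-only cells and 8.05 ± 0.159 in the next highest, the Pdgfrα-only cells (SD, n = 2). *Macf1*, a linker of actin and microtubules, lay between 354 ± 8.18 and 599 ± 26.1 (SD, n = 2).

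Partners of the lamins in the nuclear envelope were represented by 13 of 14 listed genes, and the individual genes went separate ways. *Lbr* (ENSMUSG00000004880), the lamin B receptor, had values of 258 and 233 in marker-negative cells and 13.7 to 47.0 in the other 6 libraries, and was lower in GFP+ than in GFP- cells among Pdgfrα- cells (-2.55, adjusted p = 2.51e-06, limma). *Tmpo*, which encodes lamina-associated polypeptide 2, was likewise highest in marker-negative cells, at 400.4 ± 49.8 (SD, n = 2). The nesprin genes, which couple the nucleus to the cytoskeleton, were lowest there, with *Syne2* at 7.81 ± 3.13 against 201 ± 11.8 to 245 ± 8.26 in the other populations, and *Syne1* at 120 ± 28.2 against 205 ± 5.37 to 498 ± 24.4 (SD, n = 2). Among Pdgfrα+ cells, *Syne1* (-1.28, adjusted p = 0.000518) and *Tmem43* (-1.07, adjusted p = 0.00673) were lower in GFP+ cells (limma), as *Lmna* was. These were the 2 of 13 called in that comparison, where 2.13% of all genes were lower and 3.22% higher, and the median log2 difference was 0.00, the same as over all genes. Among Pdgfrα- cells 6 of 13 were higher and 3 lower in GFP+ cells (median 0.53, all genes 0.15), where 30.1% of all genes were higher and 23.6% lower. Emerin, encoded by *Emd*, was not called across the GFP gate among Pdgfrα+ (0.33, adjusted p = 0.567) or Pdgfrα- cells (-0.63, adjusted p = 0.0614, limma).

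The enzymes that process the ends of the lamins were all 5 in the table. Across the GFP gate in Pdgfrα+ cells, limma called 0 of them, with 0 at an unadjusted p under 0.05, and voom and edgeR also called 0. With 5.35% of all genes called there, 0 of 5 does not set these enzymes apart. *Zmpste24*, the protease that trims prelamin A, averaged 66.3 ± 12.5 in marker-negative, 55.7 ± 6.59 in co-positive, 40.0 ± 6.37 in Pdgfrα-only and 30.1 ± 6.72 in GFP-only cells (SD, n = 2 each). Its order did not follow that of *Lmna*. Among Pdgfrα- cells it was lower in GFP+ cells (-1.12, adjusted p = 0.000919, limma), and so was *Fntb*, a subunit of the farnesyltransferase (-0.95, adjusted p = 0.00334, limma), while *Fnta*, *Icmt* and *Rce1* were not called. In that comparison 53.7% of all genes were called, with 23.6% lower.

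Of 12 Sox and Pou factors known from neural stem cells, where such factors act on the nestin enhancer, 7 were in the table, and *Sox1*, *Sox2*, *Sox3*, *Pou3f2* and *Pou3f3* were not. The sum over the 7 was 280.1 and 290.1 in GFP-only cells, 193 and 165 in co-positive cells, 167 and 148 in Pdgfrα-only cells, and 156 and 96.1 in marker-negative cells. *Pou2f1* was the most abundant in each population, at 63.1 ± 5.44 to 109.7 ± 44.9 (SD, n = 2). *Sox10*, a factor of neural crest and glia, averaged 84.5 ± 1.86 in GFP-only and 11.4 ± 2.87 in co-positive cells (SD, n = 2) and was at the floor in Pdgfrα-only cells. It was higher in GFP+ cells both among Pdgfrα+ (3.01, adjusted p = 0.0014) and among Pdgfrα- cells (5.56, adjusted p = 3.23e-07, limma), the only one of the 7 called among Pdgfrα+ cells, where 3.22% of all genes were higher and 2.13% lower. Among Pdgfrα- cells 4 of the 7 were higher and 0 lower, against 30.1% and 23.6% of all genes. *Sox4* and *Sox9* were higher in GFP+ cells among Pdgfrα- cells (3.07, adjusted p = 1.15e-07, and 1.63, adjusted p = 0.000345, limma). *Pou3f4* was at the floor in both GFP- populations.

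The cell cycle list ran with *Lmnb1*. The sum of its 16 genes, all in the table, was 9772 and 10915 in marker-negative cells, 1218 and 1059 in GFP-only cells, 688 and 604 in co-positive cells, and 358 and 292 in Pdgfrα-only cells, which is the order of *Lmnb1*. The proliferation marker *Mki67* was the most abundant throughout, from 118 ± 17.4 in Pdgfrα-only to 5926 ± 766 in marker-negative cells (SD, n = 2). Across the GFP gate, 6 of 16 were higher in GFP+ cells among Pdgfrα+ cells (median log2 difference 0.79), as were 3.22% of all genes, and all 16 were lower in GFP+ cells among Pdgfrα- cells (-2.84), as were 23.6% of all genes. In GFP-only cells 14 were higher than in Pdgfrα-only cells (1.67), as were 13.5% of all genes. The medians of all genes in these comparisons were 0.00, 0.15 and 0.03. The part of the cell cycle in the values of *Lmnb1* was not tested.

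Marker lists of cell types that the gates could hold also differed between the populations, and their part in the values of the members was not tested. Their counts stand against 30.1% of all genes higher and 23.6% lower in GFP+ cells among Pdgfrα- cells (median 0.15), and 3.22% higher and 2.13% lower among Pdgfrα+ cells (median 0.00). The sum of 11 markers of pericytes and smooth muscle, cells known to make nestin and desmin, was 2571 and 3335 in GFP-only cells. It was 771 and 683 in co-positive cells, 547 and 557 in Pdgfrα-only cells, and 98.9 and 160.5 in marker-negative cells. Among Pdgfrα- cells 11 of 11 were higher in GFP+ cells (median log2 difference 4.12), and among Pdgfrα+ cells 4 were (0.94). *Rgs5* was the most abundant in both Pdgfrα- populations, at 883 ± 215 in GFP-only cells (SD, n = 2). *Cnn1* was at the floor in marker-negative cells. *Cspg4* was the most abundant in both Pdgfrα+ populations and had another order. Its values were 255 and 259.7 in Pdgfrα-only, 205 and 146 in co-positive, 104 and 147 in GFP-only, and 10.5 and 27.7 in marker-negative cells. In GFP-only cells 9 of the 11 were higher and 1 lower than in Pdgfrα-only cells, against 13.5% and 14.3% of all genes.

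The sums of muscle markers, though not each marker, were highest in GFP-only cells, as *Nes* and *Des* were. The sum of 8 markers of muscle precursors was 863 and 881 in GFP-only cells, 41.7 and 48.6 in co-positive cells, 14.9 and 18.4 in Pdgfrα-only cells, and 11.5 and 6.13 in marker-negative cells. *Pax7*, a factor of muscle stem cells, was the most abundant in GFP-only cells, at 316 ± 27.8 (SD, n = 2). *Pax7*, *Myf5*, *Myog*, *Myod1* and *Cdh15* were at the floor in Pdgfrα-only cells, and *Myf5*, *Myod1*, *Cdh15* and *Cdh4* in marker-negative cells. All 8 were higher in GFP+ cells among Pdgfrα- cells (median log2 difference 5.56, or 5.44 with genes at the floor set to it), and 3 were among Pdgfrα+ cells (1.48, or 1.29). The sum of 11 markers of muscle fibres, led by the titin gene *Ttn*, was 1620.1 and 1459 in GFP-only cells, 188 and 175 in co-positive cells, 76.5 and 85.1 in Pdgfrα-only cells, and 96.4 and 84.5 in marker-negative cells, where *Tnnc2* and *Ckm* were at the floor. Of the 11, 9 were higher among Pdgfrα- cells (1.87, or 1.80 with genes at the floor set to it) and 2 among Pdgfrα+ cells (0.03). Between GFP-only and Pdgfrα-only cells, 7 of 8 precursor markers were higher and 1 lower, and 7 of 11 fibre markers were higher and 0 lower. In that comparison 13.5% of all genes were higher and 14.3% lower. Between the GFP+ populations, 1 precursor marker was higher and 7 lower in co-positive cells, where 13.1% and 11.1% of all genes were.

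Schwann cell precursors are known to contain nestin, and the sum of 11 of their markers, though not each marker, had the order of *Nes*. It was 474 and 445 in GFP-only cells, 186 and 182 in co-positive cells, 87.9 and 84.5 in Pdgfrα-only cells, and 17.1 and 15.7 in marker-negative cells. *Erbb3*, a neuregulin receptor gene, was the most abundant in GFP-only cells, at 131 ± 0.0686 (SD, n = 2), and *Ngfr*, a neurotrophin receptor gene, in both Pdgfrα+ populations. *Ngfr* had another order, with means of 102 ± 10.5 in co-positive, 54.3 ± 6.84 in Pdgfrα-only, 28.5 ± 7.32 in GFP-only and 2.58 ± 0.191 in marker-negative cells (SD, n = 2 each). Between GFP-only and Pdgfrα-only cells, 8 of the 11 were higher and 3 lower, where 13.5% of all genes were higher and 14.3% lower. *Sox10*, *Fabp7*, *Cdh19* and *Foxd3* were at the floor in Pdgfrα-only cells, and *Cdh19*, *Gap43* and *Foxd3* in marker-negative cells. With GFP, 10 of 11 were higher among Pdgfrα- cells (median log2 difference 3.49, or 3.03 with genes at the floor set to it) and 6 among Pdgfrα+ cells (1.54, or 0.91). *Gfap*, which mature non-myelinating Schwann cells make, had 1 and 0 reads in the GFP-only libraries, where this sum was highest. The 7 markers of myelinating Schwann cells in the table, of 8 listed, summed to 725 and 691, 658 and 574, 751 and 678, and 181 and 187 in the same order of populations. *Pmp22* was the most abundant in the first 3 populations and *Mbp* in marker-negative cells, while *Mag* and *Pou3f1* were at the floor in both GFP- populations. Of these 7, 5 were higher and 1 lower in GFP+ cells among Pdgfrα- cells, and 1 was higher among Pdgfrα+ cells.

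The marker-negative cells, where *Vim*, *Lmna*, *Nes* and *Des* were lowest and *Lmnb1* and *Gfap* highest, carried the markers of erythroid cells, although Ter119+ cells had been removed by the sort. The sum of the 9 genes in the table, of 10 listed, was 13873 and 21935 in these libraries and 39.9 to 172 in the other 6. The globin gene *Hbb-b1* was the most abundant, at 5991 ± 2303 (SD, n = 2). All 9 were lower in GFP+ than in GFP- cells among Pdgfrα- cells (median log2 difference -7.12), and limma called 0 of them across the GFP gate among Pdgfrα+ cells (-0.08), with 0 at an unadjusted p under 0.05 and 0 called by voom or edgeR. *Epor* was at the floor in Pdgfrα-only cells. The sum of the 8 leukocyte markers in the table, of 10 listed, was 64.3 and 63.0 in marker-negative cells and 5.52 to 27.8 in the other 6 libraries, with *Lyz2* the most abundant at 23.3 ± 3.53 (SD, n = 2). In GFP+ cells 3 of them were lower among Pdgfrα- cells and 1 among Pdgfrα+ cells. *Ptprc*, the CD45 gene, was at the floor in Pdgfrα-only cells, with *Csf1r*, *Cd79a* and *Elane*, while *Elane* was at the floor in GFP-only and *Mpo* in co-positive cells. The sum of 9 endothelial markers ranged from 40.9 to 143, with those extremes in the marker-negative libraries, and *Tek* or *Cdh5* was the most abundant. *Esam* was at the floor in both Pdgfrα+ populations, and *Emcn* and *Tie1* in the Pdgfrα-only cells. Of these 9, 2 were higher and 0 lower across the GFP gate among Pdgfrα- cells, although their median log2 difference was -0.49. Among Pdgfrα+ cells limma called 0 (median 0.52), where 1 had an unadjusted p under 0.05 and voom and edgeR called 0.

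Tendon markers were highest where *Vim* and *Lmna* were highest. The sum of 6 genes was 3854 and 3906 in Pdgfrα-only cells, 655 and 665 in co-positive cells, 103 and 142 in marker-negative cells, and 26.0 and 26.2 in GFP-only cells. All 6 were lower in GFP+ than in GFP- cells among Pdgfrα+ cells (median log2 difference -2.85, or -2.75 with genes at the floor set to it), and among Pdgfrα- cells 1 was higher and 4 lower. *Thbs4* was the most abundant, at 2247 ± 25.7 in Pdgfrα-only cells (SD, n = 2). *Kera* was at the floor in GFP-only cells, and *Scx* in co-positive and marker-negative cells. The sum of 9 chondrocyte markers was 716 and 2225 in Pdgfrα-only cells, 655 and 667 in co-positive cells, 598 and 1038 in marker-negative cells, and 95.1 and 124 in GFP-only cells. *Col2a1* was the most abundant in both GFP- populations, *Col11a2* in co-positive and *Sox9* in GFP-only cells, and *Matn1* was at the floor in all but the marker-negative cells. In GFP+ cells 1 of the 9 was higher and 4 lower among Pdgfrα+ cells, and 1 was higher and 7 lower among Pdgfrα- cells.

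Osteoblast markers had an order that none of the 6 members shared. The sum of 8 genes was 60977 and 44795 in co-positive cells, 17320.4 and 15679.5 in Pdgfrα-only cells, 3872 and 3202 in GFP-only cells, and 551 and 673 in marker-negative cells, where *Bglap* was at the floor. The collagen gene *Col1a1* was the most abundant, at 44748 ± 9103 in co-positive cells (SD, n = 2). With GFP, 8 of 8 were higher among Pdgfrα+ cells (median log2 difference 3.76) and 8 of 8 among Pdgfrα- cells (2.32, or 2.19 with genes at the floor set to it), while *Nes* was called in the latter comparison and not in the former.

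The sequences before the starts of *Nes*, *Vim* and *Des* are printed. These are 3 of the 4 members that were higher in GFP+ than in GFP- cells among Pdgfrα- cells, and they differ in the motifs they hold. RefSeq promoters were found for 5 of the 6 members, all but *Lmnb1*. Each sequence is the 250 bases before a start, in GRCm38.p6, on the plus strand of the genome, at chr3:87970843-87971092 for *Nes*, chr2:13574061-13574310 for *Vim* and chr1:75360042-75360291 for *Des*. Capitals mark matches on either strand to 4 motifs. The GC box was searched as GGGCGG and its reverse complement, the CCAAT box by the letters of its name, the TATA box as TATAAA, and the E-box as CAGCTG, which reads the same on both strands. *Nes* held 2 GC boxes, *Vim* 2 CCAAT boxes and 1 TATA box, and *Des* 2 GC boxes and 1 E-box.
Nes: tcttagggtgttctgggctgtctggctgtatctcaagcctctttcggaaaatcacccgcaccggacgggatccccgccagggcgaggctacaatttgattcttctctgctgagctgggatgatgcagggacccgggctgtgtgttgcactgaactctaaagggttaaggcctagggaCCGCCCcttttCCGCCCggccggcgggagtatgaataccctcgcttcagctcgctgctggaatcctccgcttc
Vim: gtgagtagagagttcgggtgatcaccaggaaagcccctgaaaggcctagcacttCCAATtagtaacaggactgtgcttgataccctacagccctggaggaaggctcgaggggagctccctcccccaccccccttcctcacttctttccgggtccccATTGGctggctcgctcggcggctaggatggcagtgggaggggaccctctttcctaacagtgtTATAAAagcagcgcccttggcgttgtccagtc
Des: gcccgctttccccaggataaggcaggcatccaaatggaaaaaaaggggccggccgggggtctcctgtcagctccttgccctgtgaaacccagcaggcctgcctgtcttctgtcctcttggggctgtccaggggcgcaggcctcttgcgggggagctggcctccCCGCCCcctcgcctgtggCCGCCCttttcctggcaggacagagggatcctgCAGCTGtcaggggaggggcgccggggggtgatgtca
Among all 32851 promoters of the same length, 32.7% held the GC box, 33.8% the CCAAT box, 12.4% the TATA box and 13.0% the E-box. The *Gfap* promoter held none of the 4 motifs, and of the 2 starts of *Lmna*, start 1 held 1 GC box and start 2 held 1 CCAAT box. The share of G and C was 58.8% for *Nes*, 58.4% for *Vim* and 67.2% for *Des*, against a median of 52.4% over all promoters. These matches describe the letters in the window and no binding was measured.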

How the data were processed

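RNA-seq of 4 sorted populations was analysed, with 2 libraries each. The authors removed adaptors with cutadapt, quantified reads with RSEM 1.17 on the NCBIM37 transcriptome and used limma (voom) for normalization. The deposited signal is linear, and dividing by the step of 1 read gave whole reads, within a tolerance of 0.05 of a read, for 100% of its values. The tests had been planned for several possible units, and the plan for linear normalized values was used. The members and the gene lists were chosen with earlier results of these data known.

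On the scale log2(value + 1), all libraries were fitted together with limma 3.58.1 (R 4.3.3; lmFit, eBayes with a mean-variance trend), using a coefficient for each population, which left 4 residual degrees of freedom. P-values were adjusted over all 15880 genes by the Benjamini–Hochberg method. The interaction is the GFP difference in Pdgfrα+ cells minus that in Pdgfrα- cells. Tables and figures used matplotlib 3.10.9, scipy 1.17.1, pandas 2.3.3, numpy 2.4.6 and Python 3.11.15. The fits were run on simulated reads, with changes set in a few genes of the co-positive cells only and the same extra spread for every gene. That setting is simpler than these data, where many genes differed and the spread varied. The lowest mean of reads for a changed gene was raised after an earlier draw had recovered too few genes. On the recovered reads, edgeR 4.0.16 (quasi-likelihood) called 893 genes and voom 1057 across the GFP gate in Pdgfrα+ cells, and 8415 and 8651 in Pdgfrα- cells. Between the GFP+ populations they called 3586 and 3882, between the GFP- populations 9281 and 9495, between the single-positive populations 4182 and 4463, between co-positive and marker-negative cells 9240.0 and 9403, and for the interaction 6644 and 6766.

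Named genes are the 6 members, genes of the filament, partner and enzyme lists with a mean of at least 5, up to 4 genes with the highest mean of each other list, the 10 genes most like *Nes* and up to 5 most like each other member, and the most abundant and some floor genes of marker lists. Genes named outside this rule are said to be so. A gene was at the floor of a population with at most 3 reads in both libraries. Same-numbered libraries came from the same pool of littermates. This was checked with *Xist*, which had values of 2.90 to 11.3 in every replicate 1 and 868 to 1380 in every replicate 2, and deviations from the population mean had r of 0.00 to 0.08 between libraries of the same number. Promoters are from RefSeq (GRCm38.p6). The alternatives were voom, edgeR, median-of-ratios scaling, a pseudocount of 0.1, a filter on low values, the replicate block, a fit of only the compared populations and leaving out each library. A fit without the marker-negative libraries was added after seeing the data.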

Additional observations from a re-analysis of the deposited data

Results flagged for a closer look

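The difference between GFP+ and GFP- cells was called unequal in Pdgfrα+ and Pdgfrα- cells for each of the 6 members by the interaction in limma, and for *Gfap* that call was lost with voom (adjusted p = 0.0862) and with a pseudocount of 0.1 (adjusted p = 0.058). As the GFP difference in Pdgfrα+ cells minus that in Pdgfrα- cells, on the log2 scale, it was -3.76 for *Nes*, -4.78 for *Vim*, -4.58 for *Des* and -2.47 for *Lmna*. It was 2.41 for *Gfap* and 2.81 for *Lmnb1*. Where the *Gfap* call was lost the value was larger, at 3.75 with voom and 3.44 with a pseudocount of 0.1. The interaction was called for 44.3% of all genes. It takes in the marker-negative libraries, which carried erythroid markers and the highest sums of cell cycle genes, and their part in it was not tested.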

How the results depend on the processing

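Each of the 7 *Nes* differences kept its direction and its side of the threshold under voom, edgeR, median-of-ratios scaling, a pseudocount of 0.1, a filter on low values and the replicate block (0.82 across the GFP gate in Pdgfrα+ cells, adjusted p = 0.0622). The 6 pairwise *Nes* differences did so in a fit of only the compared populations, and the 3 that use no marker-negative library did so in a fit without those libraries, chosen after seeing the data. The replicate block moved 0 of 56 results across the threshold or, for counts, by more than 1.5 times, and the genes called across the GFP gate in Pdgfrα+ cells went from 849 to 924. With a library left out, 53 of 56 *Nes* results kept their side. The other 3 were the difference between the GFP+ populations, at -1.44, -1.19 and -1.16, and it kept its call at -1.47 without replicate 2 of the co-positive cells. Members called ranged from 1 to 3 across the GFP gate in Pdgfrα+ cells and from 1 to 3 between the GFP+ populations. Genes called ranged from 246 to 1083 and from 2158 to 4056 in these comparisons, and from 2757 to 4642 between the single-positive populations, and the cause was not tested beyond the smaller number of libraries. Across the GFP gate in Pdgfrα+ cells, leaving out a library gave -0.16 to 0.77 for *Des* and -1.05 to 0.13 for *Gfap*, and between the GFP+ populations it gave -0.12 to 1.06 for *Gfap*. Of 280 results of the other members with a library left out, 268 kept their direction and side, 9 lost the call and 3 turned, and of 255 under other alternatives 253 kept theirs and 2 lost the call. A lone library is assumed to vary like the other groups. At 0 to 5 reads per library in 3 populations, depth limits what can be said of *Gfap* there. Its log2 differences also depended on the method. Co-positive minus marker-negative cells gave -2.41 in the main fit and -4.20 with voom. GFP-only minus Pdgfrα-only cells gave -0.93 and, with edgeR, -3.01. Co-positive minus GFP-only cells gave 0.47 and, with edgeR, 2.25, and co-positive minus Pdgfrα-only cells -0.46 and, with voom, -1.56.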
